A study of Mus musculus with 6 samples.

Results

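Protocadherins (Pcdh) were examined in the cortex of wild-type and *Sam68:Slm2* double knockout (dKO) mouse embryos. Every row of the gene table whose symbol begins with Pcdh was taken, whether the symbol stood alone or was joined to others, which gave 30 features of 59484 listed (mm10). They comprise 12 non-clustered genes, 17 genes of the beta cluster and 1 feature that joins 14 alpha and 22 gamma symbols, so that 65 protocadherin symbols are covered. Cortices of C57BL/6 mice were taken at E18.5, 3 of them wild-type and 3 dKO, and their polyA+ RNA was sequenced. The dKO embryos are homozygous for knockout alleles of *Sam68* (*Khdrbs1*) and *Slm2* (*Khdrbs3*), which encode RNA-binding proteins of the STAR family, and the knockouts are not restricted to a cell type. Per the study's breeding scheme, parents were Sam68+/-:Slm2-/-, so that dKO embryos developed in mothers that lack *Slm2*, and neither genotype received a treatment. Such parents give no wild-type embryos, so wild-type and dKO embryos were not littermates of each other. Genotype therefore cannot be told apart from litter or from the *Slm2* genotype of the mother. The labels do not say whether each library is 1 embryo or whether embryos of the same genotype shared a litter. *P*-values thus measure the spread between these libraries.

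Protocadherins are transmembrane proteins of the cadherin superfamily that neurons carry on their surface. In the clustered family, each neuron chooses a few promoters of the alpha, beta and gamma arrays, and the resulting combination of isoforms lets a neuron tell its own branches from those of other cells. The alpha and gamma proteins end in a cytoplasmic tail encoded by constant exons that all isoforms of an array share, whereas each beta gene is a single exon with no constant part. The non-clustered genes are scattered in the genome. They include the delta1 and delta2 subgroups, which act in cell sorting, axon pathfinding and synapse formation and bind regulators of actin and of phosphatases.

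The values are read counts divided by a size factor of each library, called normalized counts here. The libraries held between 31837922 and 40896541 reads on the listed features. The labels were checked on the targeted genes. *Khdrbs1* had 8231, 8436 and 7974 normalized counts in wild-type, against 114, 197 and 146 in dKO cortex, and *Khdrbs3* had 13543, 15215 and 12764 against 7060, 6350 and 6547, with adjusted *P*-values of 1.08e-07 and 0.000855 (limma). The *Khdrbs3* feature thus kept 48.1% of its wild-type reads in dKO. Markers of cortical projection neurons summed to between 100030 and 145053 normalized counts in every library, so the neurons of the labelled tissue were present. The labels give no sex. *Xist* was high in wild-type 2 and dKO 3, at 2793 and 1661 normalized counts, where *Ddx3y*, *Uty* and *Kdm5d* were at 0, and it stayed at or below 12.3 in the other 4 libraries, so that the libraries with *Xist* were split evenly between the genotypes.

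The non-clustered protocadherins were lower in dKO cortex in 11 of 12 cases, with a median log2 fold change of -0.34, while the beta genes were divided into 8 lower and 8 higher with a median of -0.04. The joint alpha and gamma feature stood at -0.08. Over all 18970 features tested the median was 0.00 and 49.4% lay below 0. None of the 29 protocadherin features that passed the filter of a mean of at least 10 reached an adjusted *P*-value under 0.05 with limma, against a background of 0.1% of all features, or 0.0474% for lower features alone. At an unadjusted *P*-value under 0.05 with limma, 8 of 29 were lower and 0 were higher, where the background is 6.58% lower and 4.92% higher. These 8 were *Pcdh20*, *Pcdh11x*, *Pcdh10*, *Pcdh12*, *Pcdh17* and *Pcdh9* among the non-clustered genes and *Pcdhb17* and *Pcdhb6* among the beta genes. Since fewer cells of a type and less RNA per cell give the same reading in whole tissue, neither can be told apart from the other here. With the recovered reads, edgeR called 0 protocadherins after adjustment and DESeq2 called 2, *Pcdh11x* with an adjusted *P*-value of 0.00142 and *Pcdh20* with 0.0464, both lower, where DESeq2 called 1.07% of all features, and 0.749% as lower.

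**Figure D1:**
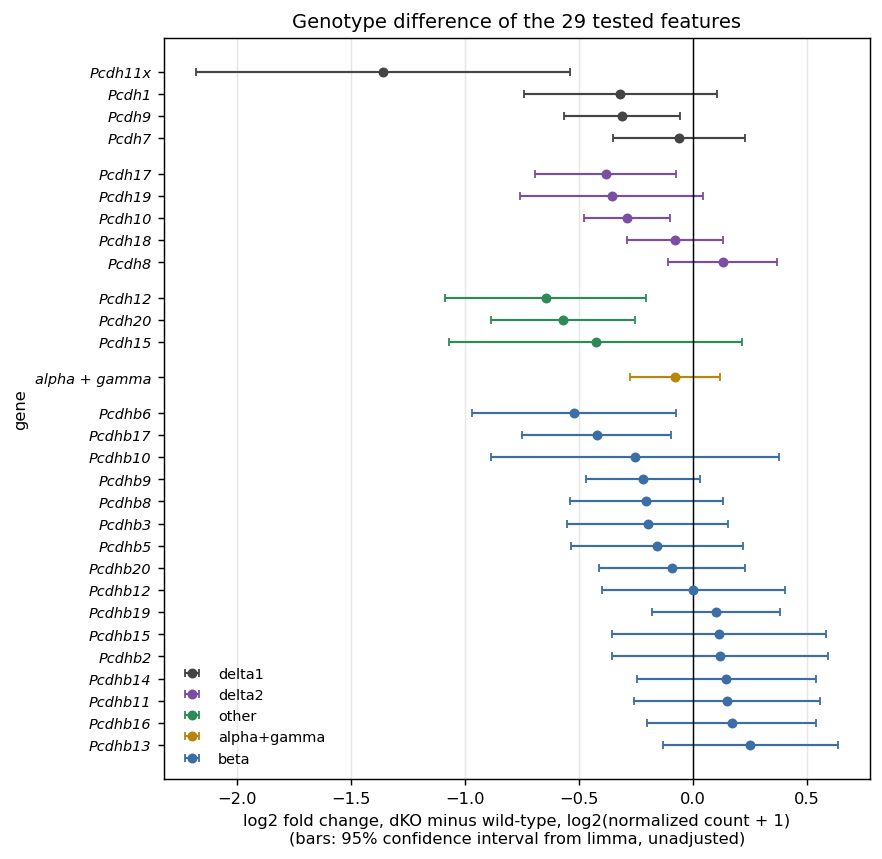
The log2 fold change of each tested protocadherin feature, dKO minus wild-type, is plotted as a point with its 95% confidence interval from limma, not adjusted for the number of features, and coloured by subgroup. All non-clustered genes but *Pcdh8* lie left of 0, the joint alpha and gamma feature lies at -0.08, and the beta genes spread from -0.52 to 0.25.

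The upstream sequences of the non-clustered genes on which these results turn are shown to place the members side by side. RefSeq promoter windows were used for 9 of the 12 non-clustered genes, and the 250 bases before the annotated start are printed for the 4 of these 9 that were lower at an unadjusted *P*-value under 0.05 and for *Pcdh8*, the single non-clustered gene with a value above 0. Capitals mark matches on either strand to 3 short promoter motifs. The first, TATAAA, is the core of the TATA box. The second, CCAAT, is bound by the factor NF-Y. The next, GGGCGG, is the GC box bound by Sp1. An E box, spelled CAGCTG, was searched in the same way. In the printed windows no match overlaps a match of another motif.
*Pcdh10* (GRCm38.p6, chr3:45378148-45378397, + strand): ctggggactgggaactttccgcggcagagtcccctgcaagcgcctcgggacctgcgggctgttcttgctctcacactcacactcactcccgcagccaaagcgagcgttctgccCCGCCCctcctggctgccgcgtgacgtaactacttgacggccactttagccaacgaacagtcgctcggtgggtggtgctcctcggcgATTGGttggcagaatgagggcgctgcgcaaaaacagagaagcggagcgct
*Pcdh17* (GRCm38.p6, chr14:84443313-84443562, + strand): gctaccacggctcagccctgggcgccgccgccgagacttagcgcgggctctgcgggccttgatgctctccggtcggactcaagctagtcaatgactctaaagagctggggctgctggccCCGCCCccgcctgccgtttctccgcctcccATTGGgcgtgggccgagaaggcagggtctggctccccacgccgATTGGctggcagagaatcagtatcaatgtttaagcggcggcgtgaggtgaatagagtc
*Pcdh9* (GRCm38.p6, chr14:93890680-93890929, - strand): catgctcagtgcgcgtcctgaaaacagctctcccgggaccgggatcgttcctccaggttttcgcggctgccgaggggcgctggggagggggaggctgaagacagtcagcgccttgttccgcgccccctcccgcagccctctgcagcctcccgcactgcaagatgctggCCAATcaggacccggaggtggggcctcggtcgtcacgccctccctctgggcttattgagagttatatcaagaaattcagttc
*Pcdh20* (GRCm38.p6, chr14:88471397-88471646, - strand): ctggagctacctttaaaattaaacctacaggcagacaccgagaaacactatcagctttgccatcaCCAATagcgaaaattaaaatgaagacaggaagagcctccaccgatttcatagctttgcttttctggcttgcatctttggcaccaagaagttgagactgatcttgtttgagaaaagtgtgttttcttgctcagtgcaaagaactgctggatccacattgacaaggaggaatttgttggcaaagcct
*Pcdh8* (GRCm38.p6, chr14:79771313-79771562, - strand): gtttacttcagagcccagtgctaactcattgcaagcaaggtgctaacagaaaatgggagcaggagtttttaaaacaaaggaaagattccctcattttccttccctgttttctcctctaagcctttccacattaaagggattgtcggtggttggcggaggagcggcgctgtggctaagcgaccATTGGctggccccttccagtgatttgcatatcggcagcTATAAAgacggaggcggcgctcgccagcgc

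The 5 windows differ in base composition. *Pcdh10*, *Pcdh17* and *Pcdh9* hold 22, 21 and 18 CG dinucleotides, against a median of 6 over 32851 windows of the same length. *Pcdh8* holds 11 and *Pcdh20* holds 3. The GC content of the 5 windows runs from 42.4% in *Pcdh20* to 64.8% in *Pcdh17*. Among the windows not printed, that of *Pcdh18* (log2 fold change -0.08) holds 23 CG dinucleotides, *Pcdh19* 16, *Pcdh7* 7 and *Pcdh15* 6. CG counts thus do not separate the lower genes from the others. A match to the NF-Y motif stands in 8 of the 9 windows, *Pcdh7* being the exception, and in 33.8% of all windows. A GC box stands in 4 of 9, against 32.7% of all windows, and a TATA box in 2 of 9, *Pcdh8* and *Pcdh15*, against 12.4%. The E box stands in 0 of 9 windows and in 13% of all windows. The window of *Pcdh10* overlaps an exon of the antisense gene *2610316D01Rik*, and the other 4 printed windows overlap no annotated exon (GENCODE M21). *Pcdh11x* and *Pcdh12*, also lower at an unadjusted *P*-value under 0.05, have no window shown here. The matches describe these letters only, and all 5 printed windows, that of *Pcdh8* included, carry a match to the NF-Y motif.

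Among the delta1 genes, 4 of 4 had values below 0. *Pcdh11x* (chrX:120290259-120910619), an X-linked adhesion protein of neurons, had 243, 180 and 580 normalized counts in wild-type, against 110, 122 and 110 in dKO cortex. The genotypes did not overlap, and wild-type 3 stood far above the other libraries. The log2 fold change was -1.36 ± 0.36 (SE) with an unadjusted *P*-value of 0.00442 and an adjusted one of 0.3 (limma), and without wild-type 3 it was -0.87 with an unadjusted *P*-value of 0.00206. Wild-type 3 also had the most reads of meningeal fibroblast markers, which summed to between 612 and 1758 normalized counts in wild-type, against between 569 and 643 in dKO. All 8 of these markers lay below 0, and none was at 0 in all libraries. An unadjusted *P*-value under 0.05 (limma) was reached by 3 of the 8, where the background is 6.58% lower. Wild-type 3 also had the highest sums of endothelial, choroid plexus, microglia, interneuron and radial glia markers. Its sum of cortical projection neuron markers was the lowest. The part of any of these markers in the *Pcdh11x* difference was not tested. In the libraries with *Xist*, *Pcdh11x* had 180 normalized counts in wild-type, against 110 in dKO, and in those without it 243 and 580 against 110 and 122.

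*Pcdh9* (chr14:93013700-93890679), whose protein binds phosphatase 1 and is carried by many cortical neurons, had 3146, 2772 and 2520 normalized counts in wild-type, against 2595, 2228 and 1990 in dKO. The highest dKO library exceeded the lowest wild-type one. The difference was -0.31 ± 0.11 with an unadjusted *P*-value of 0.0208 and an adjusted one of 0.382 (limma). *Pcdh1* (-0.32 ± 0.19) and *Pcdh7* (-0.06 ± 0.13), adhesion proteins expressed in epithelia as well as in brain, had unadjusted *P*-values of 0.127 and 0.645 (limma), and both overlapped between the genotypes. For *Pcdh1* the value was -0.09 without dKO 3, and with the presence of *Xist* as a factor its unadjusted *P*-value was 0.0329 and the adjusted one 0.312 (limma). The sign of *Pcdh7* rests on wild-type 1, which held 7149 of its normalized counts where the other 5 libraries held between 4690 and 5638, and without that library its log2 fold change was 0.10. The unnamed feature that covers the 3′ end of *Pcdh1* in the same table had a value of -0.28.

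Among the delta2 genes, 4 of 5 had values below 0. *Pcdh10* (chr3:45378398-45434579), which recruits the actin regulators of the WAVE complex and guides axon growth in the forebrain, had 7495, 7358 and 7420 normalized counts in wild-type, against 5844, 5646 and 6780 in dKO cortex. Every dKO library was below every wild-type one, and the wild-type libraries were close to each other. The mean was 7424 ± 68.6 (SD, n = 3) in wild-type and 6090 ± 606 in dKO, or 82.0% of wild-type, with a log2 fold change of -0.29 ± 0.08, an unadjusted *P*-value of 0.00596 and an adjusted one of 0.318 (limma). *Pcdh17* (chr14:84443562-84537060), which acts in corticobasal circuits and at presynaptic sites, had 3998, 3092 and 3712 normalized counts in wild-type, against 3404, 2382 and 2547 in dKO. Here dKO 1 lay within the wild-type range and the other dKO libraries below it. In limma the log2 fold change was -0.38 ± 0.14 with an unadjusted *P*-value of 0.0203 and an adjusted one of 0.380 (limma).

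*Pcdh8* (chr14:79766772-79771314), an activity-regulated protein that drives the internalization of N-cadherin at synapses, was the single non-clustered gene with a value above 0. It had 5433, 4592 and 4821 normalized counts in wild-type, against 6248, 5307 and 4753 in dKO, and the genotypes overlapped. Its log2 fold change was 0.13 with a 95% confidence interval from -0.11 to 0.37 and an unadjusted *P*-value of 0.255 (limma). *Pcdh18* had a value of -0.08, with an interval from -0.29 to 0.13. *Pcdh19*, an X-linked gene mutated in an epilepsy of girls, had 342, 256 and 329 normalized counts in wild-type, against 282, 252 and 193 in dKO. Its log2 fold change was -0.36 ± 0.18 with an unadjusted *P*-value of 0.0770 (limma), and with the presence of *Xist* as a factor the unadjusted *P*-value was 0.0235 and the adjusted one 0.289. Without dKO 3 the value of *Pcdh19* was -0.20.

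The 3 other non-clustered genes had the lowest summed level relative to wild-type, 68.0%, where the delta1 and delta2 genes stood at 87.5% and 89.8%. Such sums mainly follow the genes with the most counts. In wild-type, *Pcdh20* held 793 of the mean sum of 1151 for these 3 genes, and *Pcdh7* held 5818 of 9500 for delta1. *Pcdh20* (chr14:88464747-88471397), a protocadherin of neurons and sensory epithelia, had 834, 778 and 768 normalized counts in wild-type, against 481, 676 and 467 in dKO. The genotypes did not overlap, and dKO 2 lay closest to the wild-type libraries. Its log2 fold change was -0.57 ± 0.14, with an unadjusted *P*-value of 0.00236 and an adjusted one of 0.265 (limma), the lowest in the family. *Pcdh12* (chr18:38267092-38284404), a protocadherin of endothelial cells, had 193, 226 and 199 normalized counts in wild-type, against 141, 158 and 101 in dKO. Again no dKO library reached the wild-type range.

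The log2 fold change of *Pcdh12* was -0.65 ± 0.20, with an unadjusted *P*-value of 0.00815 and an adjusted one of 0.335 (limma). The 9 endothelial markers, none of which was at 0 in all libraries, all had values below 0 with a median of -0.19. Of these, 2 (*Kdr* and *Flt1*) had an unadjusted *P*-value under 0.05 (limma), where the background is 6.58% lower. The 9 markers summed to between 5934 and 7546 normalized counts in wild-type, against between 5579 and 6343 in dKO. Their part in the *Pcdh12* difference was not tested. *Pcdh15*, which forms the tip links of hair cells and is also carried by oligodendrocyte precursors, had 209, 93.4 and 153 normalized counts in wild-type, against 85.3, 130 and 110 in dKO, with a log2 fold change of -0.43 ± 0.29 and an unadjusted *P*-value of 0.170 (limma). The genotypes overlapped, and the value was -0.16 without wild-type 1 and -0.74 without wild-type 2. The 6 markers of oligodendrocyte precursors all lay below 0 with a median of -0.71. An unadjusted *P*-value under 0.05 (limma) was reached by 4 of the 6, where the background is again 6.58% lower. The sum of the 6 markers lay between 7786 and 13527 normalized counts in the wild-type libraries, against 4333 to 7386 in dKO. Their part in the *Pcdh15* difference was not tested.

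**Figure D2:**
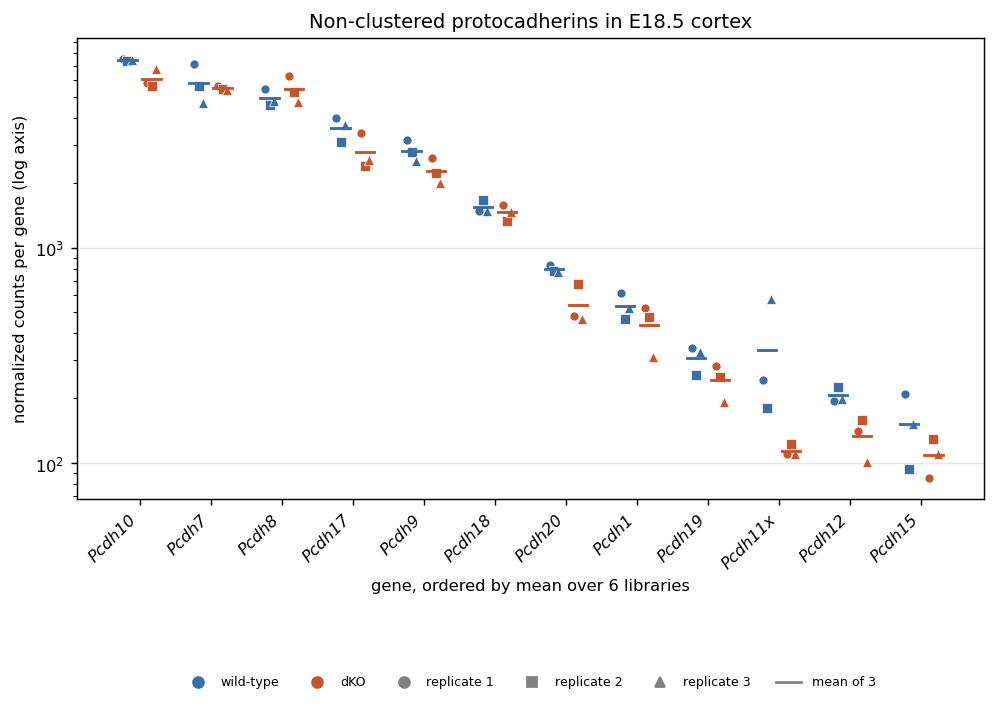
Normalized counts of the 12 non-clustered protocadherins are plotted on a log axis for each library, with a bar at the mean of 3 libraries per genotype. *Pcdh10*, *Pcdh11x*, *Pcdh12* and *Pcdh20* show no overlap between the genotypes, and *Pcdh8* is the single gene whose dKO mean is above that of wild-type.

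Per kilobase of annotated exon, the wild-type level of the non-clustered genes ranged from 1090 ± 95.8 normalized counts per kb for *Pcdh8* to 7.30 ± 2.79 for *Pcdh15* (SD, n = 3). *Pcdh7* (554 ± 118) and *Pcdh10* (500 ± 4.62) came next and did not differ beyond their spread. *Pcdh9* followed at 433 ± 48.5. *Pcdh17* (326 ± 41.9) and *Pcdh18* (287 ± 20.3) overlapped in spread, as did *Pcdh20* (145 ± 6.51) and *Pcdh1* (135 ± 19.1). *Pcdh12* (34.0 ± 2.86), *Pcdh19* (29.5 ± 4.46) and *Pcdh11x* (24.0 ± 15.4) stood together near the lower end. The joint alpha and gamma feature held 706 ± 54.7 normalized counts per kb, and the 16 beta genes that passed the filter held between 37.9 and 262. These lengths join all annotated exons of a feature, alternative ones included, so levels per kb depend on the annotation. For *Pcdh15* the length was 20774 bases, against 9104 in its longest transcript, and for the joint feature it was 111646. The genes that were lower at an unadjusted *P*-value under 0.05 were thus found at high (*Pcdh10*), middle (*Pcdh9*, *Pcdh17*) and low levels per length (*Pcdh11x*, *Pcdh12*).

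The alpha and gamma isoforms cannot be followed one by one, because the table gives them as 1 feature that spans 1147 kb (chr18:36694473-37841961) and so also the beta cluster between them. It carries the symbols *Pcdha1* to *Pcdha12*, *Pcdhac1*, *Pcdhac2*, *Pcdhga1* to *Pcdhga12*, *Pcdhgb1*, *Pcdhgb2*, *Pcdhgb4* to *Pcdhgb8*, and *Pcdhgc3* to *Pcdhgc5*. The feature also joins 3 symbols that are not protocadherins, so its counts are not those of alpha and gamma isoforms alone. The 5 C-type members, *Pcdhac1*, *Pcdhac2*, *Pcdhgc3*, *Pcdhgc4* and *Pcdhgc5*, which neurons express constitutively rather than by choice, are within it. The feature had 84880, 72671 and 78883 normalized counts in wild-type, against 81830, 74687 and 67613 in dKO cortex. The genotypes overlapped. Its dKO mean was 94.8% of that of wild-type, with a log2 fold change of -0.08, a 95% confidence interval from -0.28 to 0.12 and an unadjusted *P*-value of 0.401 (limma). A shift between isoforms at a constant total would not change this value.

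The named beta genes summed to 93.9% of their wild-type level in dKO cortex. *Pcdhb1*, the first gene of the cluster, was near 0 with between 0 and 3.51 normalized counts per library and did not pass the filter, which left 16 tested. *Pcdhb17* (chr18:37484795-37489454), the beta gene with the most normalized counts, had 1411, 1174 and 1077 in wild-type and 1033, 989 and 726 in dKO. Every dKO library lay below every wild-type one. This gene had a log2 fold change of -0.42 ± 0.15 with an unadjusted *P*-value of 0.0162 and an adjusted one of 0.366 (limma). *Pcdhb6* (chr18:37333946-37337674) had 187, 215 and 166 normalized counts in wild-type, against 148, 148 and 102 in dKO. It too showed no overlap, and its value was -0.52 ± 0.20 with an unadjusted *P*-value of 0.0268 and an adjusted one of 0.393 (limma). Without dKO 3 the values were -0.26 for *Pcdhb17* and -0.34 for *Pcdhb6*.

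The next beta genes by level showed no such difference. *Pcdhb19* had 904, 980 and 786 normalized counts in wild-type, against 1064, 994 and 811 in dKO, with a log2 fold change of 0.10 and an interval from -0.18 to 0.38. *Pcdhb20* had 1026, 866 and 810 against 983, 889 and 682, with a value of -0.09 and an interval from -0.41 to 0.23. The genotypes overlapped for both genes. Of the beta genes, 3 (*Pcdhb6*, *Pcdhb8*, *Pcdhb17*) were lower without overlap and 0 were higher without overlap. Over the family, 7 of 29 features were lower without overlap, the others being *Pcdh10*, *Pcdh11x*, *Pcdh12* and *Pcdh20*, against 8.48% of all features, and 0 were higher, against 7.89%.

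**Figure D3:**
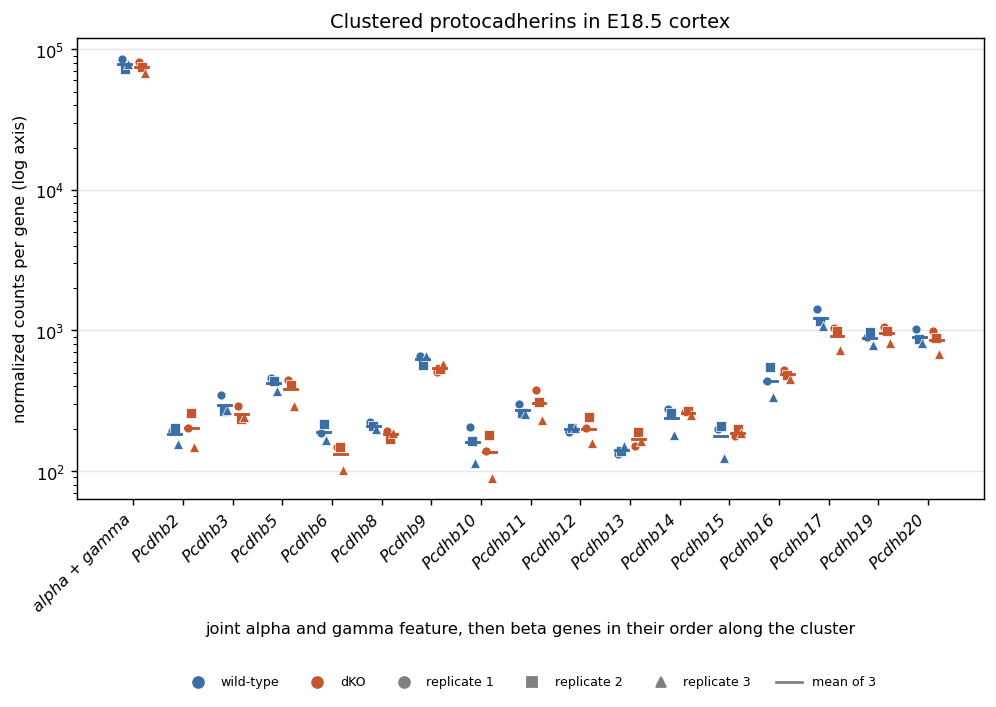
Normalized counts of the joint alpha and gamma feature and of the 16 tested beta genes, in their order along chromosome 18, are plotted on a log axis for each library with a bar at the mean of 3 libraries per genotype. The values are not per length, and the joint feature sums many exons. *Pcdhb17*, *Pcdhb19* and *Pcdhb20* at the end of the array carry the most normalized counts among the beta genes.

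The named beta genes were also compared as the share of each in their summed counts in a library, which does not depend on the total. Unnamed features over *Pcdhb4*, *Pcdhb7*, *Pcdhb18* and *Pcdhb22*, with wild-type means of 240, 431, 388 and 367 normalized counts, are not in that sum. The percentages are thus not shares of the whole beta array. *Pcdhb17* took 19.7%, 17.5% and 18.4% of the named beta counts in wild-type and 15.4%, 15.3% and 13.7% in dKO. The means were 18.6% ± 1.11 and 14.8% ± 0.949 (SD, n = 3). The share of *Pcdhb19* was 13.6% ± 1.01 in wild-type and larger in dKO, at 15.5% ± 0.327. Neither gene overlapped between the genotypes, and the exact two-sided permutation *P*-value was 0.1 for each, the smallest that 3 against 3 can give. *Pcdhb20*, the neighbour of *Pcdhb19*, took 13.7% in both genotypes. The shares of *Pcdhb11* and *Pcdhb14* were higher and that of *Pcdhb6* lower without overlap, each with the same exact permutation *P*-value of 0.1. These genes were found among the 17 beta genes whose shares were compared, and no background was computed for shares. Shares within a library are not independent, since they add up to 100%, and a lower share of 1 gene goes with higher shares of others.

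Beta genes resemble one another, and reads from stretches that they share could be assigned to either gene. Between 1.8% and 12% of the 50-base windows of a tested beta transcript also occur in a transcript of another gene, whereas 0 of those of the non-clustered transcripts do. The longest shared stretch, 155 bases in *Pcdhb6* and *Pcdhb10*, slightly exceeds the read length of 150 bases. For *Pcdhb17* the longest shared stretch is 116 bases, which is shorter than a read. The share of reads that could not be assigned to 1 beta gene was not measured. Unnamed features that cover *Pcdhb4*, *Pcdhb7*, *Pcdhb18* and *Pcdhb22*, matched by coordinates after the table was seen, had log2 fold changes of 0.23, 0.00, 0.06 and -0.02. The 4 unnamed features over antisense or other noncoding genes of the clusters had values of 0.33 (*Gm10545*), 0.27 (*Gm10544*), -0.06 (*BC037039*) and -0.42 (*Gm26672*). That over *Gm26672* was lower without overlap, as were 8.48% of all features. Its unadjusted *P*-value was 0.0337, where the background is 6.58% lower under 0.05, and its adjusted one 0.399 (limma). Because the strand setting of the counting is not given in the sources used here, reads from a gene and its antisense partner cannot be told apart.

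Many protocadherins were high or low in the same libraries. Of the 29 tested members, 17 had their highest value in wild-type 1 and 14 their lowest in dKO 3. The same shares over all features were not computed, so these counts are not shown to be particular to protocadherins. The median deviation of the non-clustered genes from their own means was 0.34, -0.01 and 0.19 log2 units in wild-type 1, 2 and 3 and 0.03, -0.08 and -0.32 in dKO 1, 2 and 3. For the beta genes it was 0.17, 0.09 and -0.10 in wild-type and 0.06, 0.09 and -0.24 in dKO. The class medians of wild-type 2 and dKO 1 thus lay close to each other, and wild-type 1 and dKO 3 lay at the ends. Without wild-type 1, the members at an unadjusted *P*-value under 0.05 numbered 4 rather than 8, and without dKO 3 also 4, in both cases *Pcdh10*, *Pcdh11x*, *Pcdh12* and *Pcdh20*. Oligodendrocyte precursor markers were also highest in wild-type 1 (13527 summed normalized counts) and lowest in dKO 3 (4333), and wild-type 1 and dKO 1 showed higher values for long genes than the other libraries (Spearman 0.22 and 0.31 with exon length across 14190 genes, against -0.22 to -0.11). Their part in the protocadherin values was not tested, except that removal of the length trend left all 8 members at an unadjusted *P*-value under 0.05 and added *Pcdh19*.

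**Figure D4:**
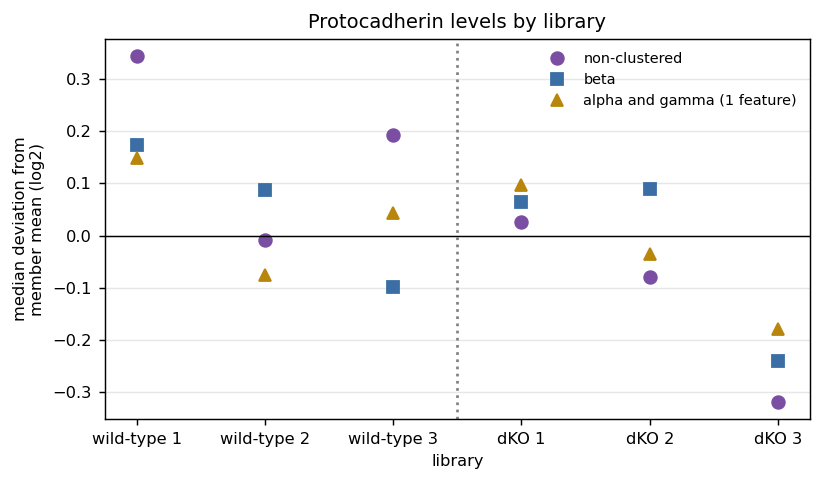
For each library, the median deviation of the members of a class from their mean over the 6 libraries is plotted in log2 units, with wild-type left and dKO right of the dotted line. The non-clustered genes range from 0.34 in wild-type 1 to -0.32 in dKO 3, the beta genes from 0.17 to -0.24, and the single alpha and gamma feature from 0.15 to -0.18 in the same libraries.

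Genes that act with protocadherins were counted from lists that were chosen with earlier results of these data known. Of 21 regulators of promoter choice in the clusters, such as the insulator protein CTCF, cohesin and DNA methyltransferases, 0 were lower and 2 were higher at an unadjusted *P*-value under 0.05 with limma, where the background is 6.58% lower and 4.92% higher, and none passed after adjustment. The 2 were *Ehmt1*, a histone H3K9 methyltransferase (0.26 ± 0.10), and *Pds5a*, a cohesin regulator (0.25 ± 0.10), and the median of the list was 0.10. Of 23 partners and signalling proteins, 2 were lower, the receptor tyrosine kinase *Ret* (-0.47 ± 0.17) and the actin regulator *Rac1* (-0.19 ± 0.07), 0 were higher, and the median was 0.06. These counts lie near the same background shares. *Ret* had 177, 160 and 170 normalized counts in wild-type, against 113, 124 and 128 in dKO cortex. Neither gene overlapped between the genotypes.

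Other members of the cadherin superfamily did not share 1 direction. Of 23 tested cadherins outside the protocadherins, 13 lay below 0 with a median of -0.09. At an unadjusted *P*-value under 0.05 with limma, 4 were lower (*Cdh7*, -0.85; *Cdh9*, -1.01; *Cdh15*, -0.80; *Cdh20*, -0.89) and 2 were higher (*Cdh8*, 0.36; *Celsr1*, 0.55), none of them after adjustment. The background is again 6.58% lower and 4.92% higher. *Cdh9*, a type II cadherin of synapses, had 343, 209 and 316 normalized counts in wild-type, against 158, 121 and 145 in dKO, and *Celsr1*, a planar polarity cadherin, had 2120, 2741 and 2307 against 4122, 3047 and 3355. For these 6 cadherins, every dKO library lay on the same side of every wild-type one, as for 8.48% of all features that were lower and 7.89% that were higher. Both these cadherins and the protocadherins (8 of 29 lower, 0 higher) thus had more lower than higher genes at that level. The 0 of 29 higher protocadherins lie near the background of 4.92%. The difference between the lists was not tested.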

How the data were processed

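PolyA+ RNA of 3 wild-type and 3 dKO cortices was sequenced (150 bp paired-end, stranded kit). GenoSplice analysed the reads for the authors with the gene models of the FAST database. The authors deposited a signal per gene, which is its read count over a library size factor credited to DESeq2. The submitters' processing notes name STAR 2.7.5a, SAMtools, Picard, FastQC and mm10. The counting program and its strand setting are not given in the sources used here. Positive values were whole multiples of the value of 1 read (within 0.01 read) in 100% of cases, so reads could be recovered.

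Samples were grouped by their titles. log2(normalized count + 1) was fitted with limma 3.58.1 (trend and robust, R 4.3.3) over the 18970 features whose mean reached 10. Adjustment covered all of them and followed the Benjamini-Hochberg method (threshold 0.05). Fold changes of low genes are understated on this scale. Single values were compared by exact permutation tests. Alternatives were pseudocounts of 0.1 and 10, other filters, quantile and TMM scaling, limma without trend and robust, edgeR 4.0.16 and DESeq2 1.42.0 on recovered reads, a replicate block and each library left out. Removal of the length trend and a factor for *Xist* were chosen after seeing the data. On simulated counts, limma called 174 of 200 changed features, with 7 false calls. These counts had the same dispersion for every feature and no trends shared between libraries. They therefore do not show how the fit behaves on the real values. Exon lengths came from GENCODE M21 and promoter windows from RefSeq. All non-clustered genes, the 3 beta genes with the most counts, C-type members and genes at an unadjusted *P*-value under 0.05 are named. The members and lists were chosen with earlier results of these data known. The marker lists not described in the report (choroid plexus, erythroid, microglia, interneuron, striatal and thalamic neuron) held 0 genes at an unadjusted *P*-value under 0.05.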

Additional observations from a re-analysis of the deposited data

How the results depend on the processing

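No protocadherin passed the adjusted threshold under any setting run except DESeq2 on the recovered reads, which called 2. The number at an unadjusted *P*-value under 0.05 was 8 in the reported fit, 5 in limma without trend and robust, and between 4 and 10 with each library left out. Lower clustered features numbered 2 in the reported fit, 1 with quantile normalization, 1 without trend and robust, and 0 to 2 with each library left out. *Pcdh10*, *Pcdh11x*, *Pcdh12* and *Pcdh20* kept an unadjusted *P*-value under 0.05 in every setting run. The log2 fold change changed sign for *Pcdhb20* without wild-type 1 and without dKO 3 (range over left-out libraries -0.20 to 0.061) and for *Pcdh7* without wild-type 1 (range -0.21 to 0.10). The median of the beta genes lay between -0.14 and 0.09 in those fits and that of the non-clustered genes between -0.45 and -0.25. *Khdrbs3* had a value of -1.05 with an adjusted *P*-value of 0.0891 in limma without trend and robust. Over all features, calls after adjustment with limma numbered 19, between 7 and 46 with each library left out, 7 without trend and robust and 79 with *Xist* as a factor, and DESeq2 called 202. The cause of these changes was not tested. The deviations of same-numbered libraries correlated at 0.10, -0.23 and -0.08, so the numbers were not taken to pair the libraries, and with the replicate block 0 protocadherins passed after adjustment and 8 at an unadjusted *P*-value under 0.05. With 3 libraries per genotype and 1 joint feature, changes in single alpha or gamma isoforms are beyond what these data can show.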

Other observations

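All 5 intermediate progenitor markers were higher in dKO cortex at an unadjusted *P*-value under 0.05 (limma), with a median log2 fold change of 0.49. They summed to between 2943 and 4550 normalized counts in wild-type, against 5006 to 5917 in dKO. Among them were *Neurog2* (0.95 ± 0.30) and *Mfap4* (0.92 ± 0.20). By immunofluorescence the paper reports fewer cells with TBR2, the protein of the listed marker *Eomes*, in dKO cortex at E18.5. RNA of whole tissue is not a count of cells, and the reason for the opposite directions was not tested. Of 10 cortical projection neuron markers, 4 were higher at an unadjusted *P*-value under 0.05 (limma). Among these, *Emx1* had 1127, 1329 and 1125 normalized counts in wild-type, against 1706, 1734 and 1740 in dKO. The median of that list was 0.24, and 2 of the 10 lay below 0, the lowest at -0.28. Of 8 radial glia markers, 2 were higher, *Pax6* (0.28 ± 0.10) and *Vim* (0.23 ± 0.10). The list's median was -0.01, and 4 of the 8 lay below 0, the lowest at -0.51. The background is 4.92% of all features higher at that level. None passed after adjustment. *Khdrbs2*, the third paralog of the targeted genes, had 1212, 1607 and 1300 normalized counts in wild-type, against 7585, 6499 and 7601 in dKO, with a log2 fold change of 2.40 ± 0.11 and an adjusted *P*-value of 4.58e-06 (limma).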
